A study of Mus musculus with 8 samples.

Results

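Transcripts of 10 interferon-inducible GTPase genes were followed in CD11c-positive splenocytes of C57BL/6 and lupus-prone B6.SLE123 mice. The 10 genes were chosen by name from the 13786 protein-coding genes of the deposited count table: the guanylate-binding protein genes Gbp2, Gbp3, Gbp4, Gbp5, Gbp7 and Gbp9, and the immunity-related GTPase (IRG) genes Irgm1, Irgm2, Igtp and Iigp1. All 10 were present in the table, so 10 of 13786 genes are described in depth. CD11c-positive cells came from spleens of female mice, 4 of each strain, all 7 weeks old and untreated, and their mRNA was sequenced with a stranded library kit. B6.SLE123 is a congenic strain that carries the lupus susceptibility intervals Sle1, Sle2 and Sle3 of an NZM mouse on the C57BL/6 background, which the controls share. The intervals lie on chromosomes 1, 4 and 7, and every cell of the animal carries them. None of the 10 genes lies on those chromosomes. The strain was read from the sample names and the methods, because the strain number in the genotype labels rises by 1 from mouse to mouse.

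Guanylate-binding proteins and IRG proteins are families of GTPases that cells make in quantity after exposure to interferon gamma. They collect on the vacuoles that hold intracellular bacteria and parasites and on bacteria in the cytosol, where they break membranes or expose microbial products to inflammasomes. Interferon gamma signals through the kinases Jak1 and Jak2 to the GAS element in promoters, while Irf1 and the type I interferon complex that contains Stat2 and Irf9 bind the ISRE element.

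The depth was between 25761789 and 32931045 counts in C57BL/6 mice and between 25563070 and 37367094 in B6.SLE123 mice, and each GTPase had at least 228 counts in every mouse. Levels are given as CPM, the count of a gene relative to the TMM-scaled library total. The sample label calls the cells dendritic cells, and CD11c, the product of Itgax, marks these cells but is also found on some macrophages. All 5 shared dendritic cell markers were higher in B6.SLE123 mice (median log2 fold change 0.32). Of 8 markers of type 1 conventional dendritic cells 6 were higher and 1 was lower. The summed level of these 8 was 2656 to 3036 CPM in C57BL/6 mice and 4251 to 5367 CPM in B6.SLE123 mice. Other cell types were present as well: all 8 red pulp macrophage markers were lower in B6.SLE123 mice (median log2 fold change -2.47), with summed levels of 9787 to 12340 CPM in C57BL/6 mice against 1389 to 2733 CPM, and no marker was at 0 in any mouse. Of 5 markers of type 2 conventional dendritic cells, 2 were lower and none was higher, with summed levels of 1848 to 2040 against 1006 to 1252 CPM. Of 6 B cell markers 5 were lower. Of 5 erythroid markers 4 were lower (median log2 fold change -2.48, summed levels of 50.5 to 203 against 4.73 to 31.6 CPM), and of 5 migratory dendritic cell markers 4 were higher (625 to 784 against 1004 to 1111 CPM). Summed monocyte (523 to 601 against 300.4 to 450 CPM) and neutrophil markers (81.8 to 88.8 against 25.7 to 37.0 CPM) were lower in B6.SLE123 mice without overlap, with 2 of 6 and 2 of 5 genes called. The part of these shifts in the GTPase results was not tested. In these bulk samples, fewer cells of a type and less RNA per cell cannot be told apart.

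The promoters of the 10 genes give the letters through which interferon factors are known to act. RefSeq promoter windows of GRCm38.p6, from 250 bases before to 50 bases after the start, were found for 7 of the 10 genes and not for Gbp4, Gbp9 and Iigp1. The RefSeq start can differ from that of the gene as counted. Those of Gbp5 (142496934) and Irgm2 (58214977) lie well inside the counted genes, which begin at 142493978 and 58199618. The letters searched were TTCNNNGAA for GAS, which reads the same on both strands, and for ISRE the letters GAAA, any 2 bases and GAAA again, or TTTC, any 2 bases and TTTC on the other strand, where N is any base. Counted by gene, the ISRE letters were present in a window of 7 of 7 genes and the GAS letters in 4 of 7. Counted by window, they were present in 3.44% and 8.30% of all 32851 promoter windows. Both were present in Gbp5, Gbp7, Igtp and Irgm2, as in 0.454% of all windows. A match is a description of the letters and not evidence of binding. Gbp3 has a second window, which held neither pattern.

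The chosen genes of chromosome 3 are printed first, because they include genes that fell and genes that did not pass the test. Gbp7 and Gbp3 fell in B6.SLE123 mice, while Gbp5 and Gbp2, to either side of them, did not pass. Gbp2b, which was not among the chosen genes, lies between Gbp3 and Gbp2 and was higher, as described below. The windows are on the plus strand, at chr3:142496684-142496983, chr3:142530086-142530385, chr3:142559794-142560093 and chr3:142620413-142620712, and capitals mark the GAS and ISRE matches.
Gbp5: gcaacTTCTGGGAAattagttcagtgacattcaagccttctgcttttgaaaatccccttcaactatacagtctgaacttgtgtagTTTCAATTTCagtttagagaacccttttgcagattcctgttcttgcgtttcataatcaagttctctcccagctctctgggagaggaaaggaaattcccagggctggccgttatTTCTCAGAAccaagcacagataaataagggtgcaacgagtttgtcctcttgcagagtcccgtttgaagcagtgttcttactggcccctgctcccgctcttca
Gbp7: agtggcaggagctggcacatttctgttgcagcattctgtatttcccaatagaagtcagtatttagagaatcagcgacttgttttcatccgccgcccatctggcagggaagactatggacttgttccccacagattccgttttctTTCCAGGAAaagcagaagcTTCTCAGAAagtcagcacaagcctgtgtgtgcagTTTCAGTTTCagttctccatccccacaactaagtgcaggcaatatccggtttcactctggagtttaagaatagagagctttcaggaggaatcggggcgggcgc
Gbp3: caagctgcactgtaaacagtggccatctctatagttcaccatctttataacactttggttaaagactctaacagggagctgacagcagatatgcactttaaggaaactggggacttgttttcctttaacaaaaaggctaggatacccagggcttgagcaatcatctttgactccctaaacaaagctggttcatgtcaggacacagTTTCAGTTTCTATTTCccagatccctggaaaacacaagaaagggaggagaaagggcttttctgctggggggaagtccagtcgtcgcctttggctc
Gbp2: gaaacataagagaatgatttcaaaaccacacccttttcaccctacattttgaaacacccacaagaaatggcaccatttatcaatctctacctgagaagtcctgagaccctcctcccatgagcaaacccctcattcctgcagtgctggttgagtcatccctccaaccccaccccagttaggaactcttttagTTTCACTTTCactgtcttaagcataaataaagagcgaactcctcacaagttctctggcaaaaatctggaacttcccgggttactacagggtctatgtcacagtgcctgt

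In Gbp7 and Gbp2 the single ISRE match began 53 and 59 bases before the start, and in Gbp3 a pair of overlapping matches began 45 and 39 bases before it. Gbp5 had its ISRE match farther out, 165 bases before the start. The 4 windows thus share the ISRE letters across genes that fell and genes that did not pass the test.

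The 90 bases before the RefSeq start of the IRG genes on chromosome 11 are printed because these genes varied together from mouse to mouse. Irgm1 is on the minus strand at chr11:48871421-48871510, and Igtp and Irgm2 are on the plus strand at chr11:58199466-58199555 and chr11:58214887-58214976; capitals again mark the matches.
Irgm1: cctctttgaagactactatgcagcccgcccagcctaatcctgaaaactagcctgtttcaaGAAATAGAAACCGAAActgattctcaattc
Igtp: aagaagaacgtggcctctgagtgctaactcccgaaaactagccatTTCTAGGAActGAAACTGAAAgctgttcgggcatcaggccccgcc
Irgm2: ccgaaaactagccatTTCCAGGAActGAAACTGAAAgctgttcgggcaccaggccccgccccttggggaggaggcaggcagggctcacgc

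Igtp and Irgm2 held the same 21-base arrangement, a GAS match, 2 bases and an ISRE match, with 20 of 21 bases identical and 1 substitution, T4C, given as Igtp to Irgm2 and counted from 1 at the first base of the GAS match. With their windows laid side by side at the offset of this element, 184 of 270 bases were identical. Gaps were not allowed, so stretches shifted by an insertion or deletion count as different, and the likeness of the windows can be understated. In Irgm1 a pair of overlapping ISRE matches began 30 and 24 bases before the start, and no GAS match was found. Tgtp1 and Tgtp2, IRG genes of the same chromosome outside the 10, also had an ISRE match that began 11 bases after the start of a GAS match.

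**Figure D1:**
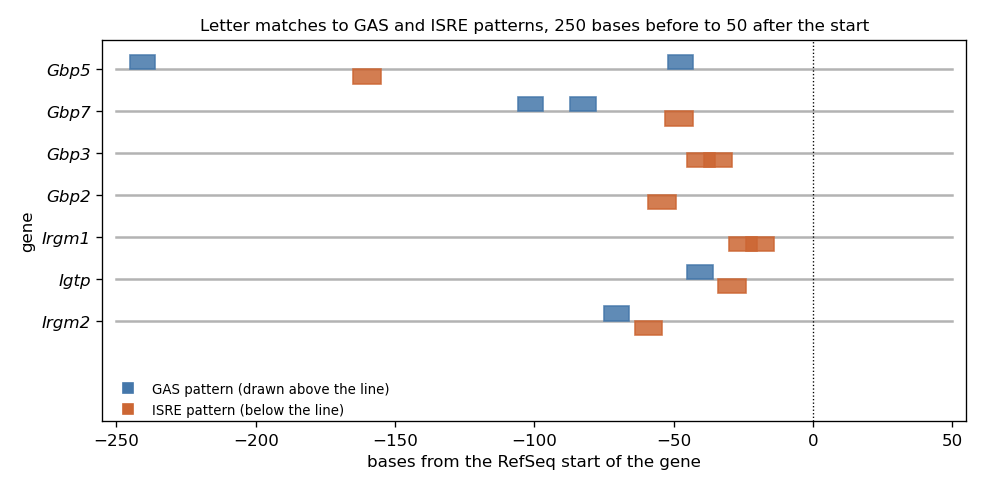
Position of GAS (blue, above the line) and ISRE (orange, below the line) letter matches in the promoter windows of 7 GTPase genes; the x axis gives bases from the RefSeq start and each grey line is a window of 300 bases. Every window drawn holds an ISRE match, and Gbp5, Gbp7, Igtp and Irgm2 also hold GAS matches.

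Of the 10 GTPases, 4 passed edgeR's quasi-likelihood test at an adjusted p under 0.05, and all 4 (Gbp3, Gbp7, Iigp1 and Irgm2) were lower in B6.SLE123 mice. Over all genes tested, 53.4% passed, 26.6% lower and 26.7% higher. The share of GTPases called was 40%, and between 3 and 5 of the 10 were called when a mouse was left out. A difference from the share of all genes was not tested. In 3 of the 10 (Gbp3, Gbp7 and Iigp1) the B6.SLE123 mice all lay under the lowest C57BL/6 mouse. Over all genes the strains did not overlap in 48.9%, 24.5% lower and 24.4% higher. Only Iigp1 among the 10 was both past the threshold and more than 2-fold lower, and none was more than 2-fold higher, against 11.1% of all genes in either direction, 8.29% lower and 2.76% higher. The log2 fold change, given as B6.SLE123 over C57BL/6 throughout, was negative for 7 of 10, and its median was -0.18 against -0.002 for all genes. By family, 2 of 6 guanylate-binding protein genes and 2 of 4 IRG genes were lower.

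**Figure D2:**
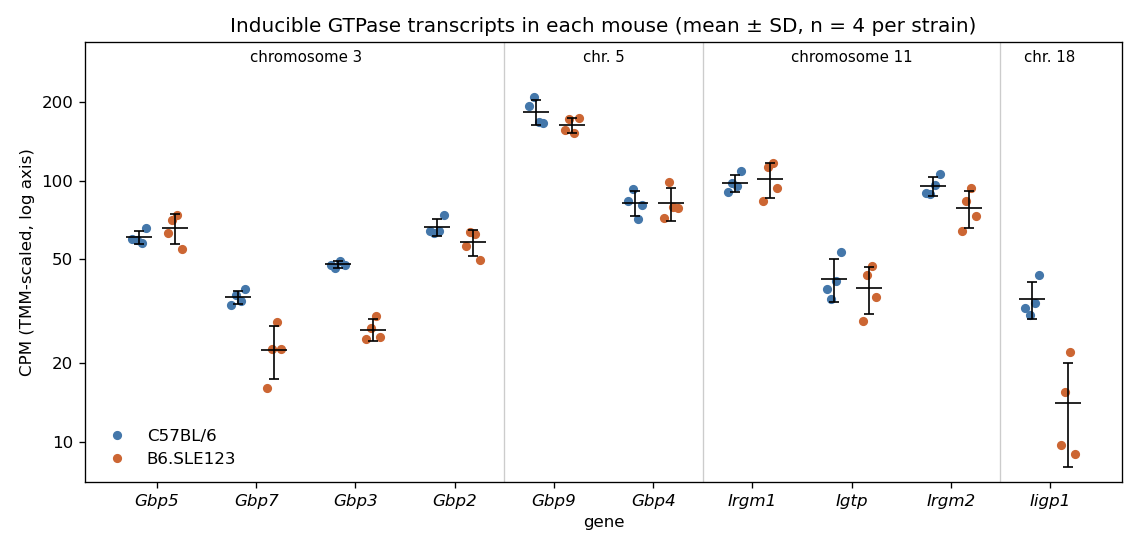
Level of each GTPase gene in each mouse, in CPM on a log axis, with blue points for C57BL/6 and orange points for B6.SLE123 mice; bars are the mean ± SD of 4 mice. The strains separate in Gbp7, Gbp3 and Iigp1 and overlap in the other 7 genes.

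Gbp2 and Gbp5 encode guanylate-binding proteins that end in a CaaX box, the signal for attachment of a lipid that anchors them to membranes. Gbp2 (chr3:142620602-142638008, plus strand) was at 64.1, 63.1, 64.4 and 73.8 CPM in C57BL/6 mice 1 to 4 and at 56.4, 64, 62.8 and 49.7 CPM in B6.SLE123 mice 1 to 4. The ranges overlap, with B6.SLE123 mice 2 and 3 at the level of most controls. The microRNA gene Mir6381 overlaps 24 exon bases of Gbp2 on the opposite strand. Its log2 fold change was -0.19 (standard error, SE, 0.081, 95% interval -0.37 to -0.01, adjusted p = 0.0724 by edgeR), and it passed the threshold without B6.SLE123 mouse 2 (-0.24, adjusted p = 0.0312). Gbp5 (chr3:142493978-142522344, plus strand), linked to activation of the NLRP3 inflammasome, was at 59.8, 59.3, 58.0 and 65.7 CPM against 63.3, 70.9, 74.1 and 54.7 CPM. The B6.SLE123 mice lie on both sides of the controls. The log2 fold change of Gbp5 was 0.12 (SE 0.085, 95% interval -0.07 to 0.31, adjusted p = 0.272), and without B6.SLE123 mouse 4 it was 0.18 (adjusted p = 0.0382).

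Gbp3 and Gbp7 lie between these genes and both fell. Gbp3 (chr3:142560026-142573209, plus strand) was at 47.7, 46.3, 49.5 and 47.8 CPM in C57BL/6 mice and at 24.7, 27.4, 30.3 and 25.2 CPM in B6.SLE123 mice. The controls were within 1.07-fold of each other, and the highest B6.SLE123 mouse was well under the lowest control. The mean fell from 47.8 ± 1.30 to 26.9 ± 2.56 CPM (SD, n = 4 each), a log2 fold change of -0.83 (SE 0.065, adjusted p = 2.22e-06 by edgeR), or 1.78-fold lower. Gbp7 (chr3:142530342-142550149, plus strand), known for its part in assembly of the phagocyte NADPH oxidase, was at 33.6, 36.5, 34.8 and 38.4 CPM against 16.1, 22.6, 28.8 and 22.7 CPM. No B6.SLE123 mouse reached the lowest control, and mouse 1 was lowest. The log2 fold change of Gbp7 was -0.67 (SE 0.14, adjusted p = 0.00179), or 1.59-fold lower. A processed pseudogene on the same strand, Gm43802, overlaps 11.3% of the exon bases of Gbp7, so part of its reads is uncertain.

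On chromosome 5, the most abundant of the 10, Gbp9 (chr5:105077630-105139539, minus strand), was at 193, 210, 168 and 166 CPM in C57BL/6 mice and at 157, 172, 153 and 174 CPM in B6.SLE123 mice. Its ranges overlap, and the log2 fold change was -0.17 (SE 0.077, 95% interval -0.34 to 0.00, adjusted p = 0.0899 by edgeR). Without C57BL/6 mouse 4 it was -0.22 (adjusted p = 0.0356). Gbp4 (chr5:105115767-105139586, minus strand) was at 83.7, 93.2, 71.4 and 81.1 CPM against 71.8, 99.3, 79.1 and 79.0 CPM. The strains cover the same range, with a log2 fold change of 0.00 (SE 0.10, 95% interval -0.22 to 0.22, adjusted p = 0.992). Gbp4 and Gbp9 share 60 exon bases on the same strand, bases that their neighbour Gbp8 holds as well, so reads from there could be given to any of them.

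Irgm1, Irgm2 and Igtp (also called Irgm3) encode the regulatory IRG proteins, which sit on host membranes and hold the effector IRG proteins inactive there. Irgm1 (chr11:48861968-48871683, minus strand) was at 91.0, 97.9, 95.9 and 109 CPM in C57BL/6 mice and at 84.0, 113, 117 and 93.6 CPM in B6.SLE123 mice. B6.SLE123 mice were both the lowest and the highest of the 8, and the log2 fold change was 0.05 (SE 0.099, 95% interval -0.17 to 0.27, adjusted p = 0.686). Igtp (chr11:58199556-58207591, plus strand) was at 38.6, 35.3, 41.4 and 53.5 CPM against 29.0, 43.6, 47.0 and 35.9 CPM. Its ranges overlap widely, with a log2 fold change of -0.12 (SE 0.16, 95% interval -0.46 to 0.23, adjusted p = 0.549).

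Irgm2 (chr11:58199618-58222782, plus strand) was at 90.2, 89.1, 96.7 and 107 CPM in C57BL/6 mice and at 64.5, 84.0, 94.0 and 73.1 CPM in B6.SLE123 mice. Of the B6.SLE123 mice, 1 (mouse 3) was within the range of the controls and the others were below it. The log2 fold change was -0.28 (SE 0.10, adjusted p = 0.0432 by edgeR), which is 1.21-fold lower. This call was at the edge of the threshold: it was lost without any of C57BL/6 mice 1, 3 and 4 and B6.SLE123 mice 1 and 4 (adjusted p between 0.0538 and 0.108), and with upper quartile scaling (adjusted p = 0.0525). Igtp and Irgm2 share 162 exon bases on the same strand, which is 8.01% of Igtp and 4.39% of Irgm2. With the counts of both summed, an alternative added after the data were seen, the log2 fold change was -0.23 (adjusted p = 0.130).

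Iigp1 (chr18:60376027-60392634, plus strand) encodes Irga6, an effector IRG protein that loads onto the vacuole of Toxoplasma gondii, and it had the largest change among the 10. It was at 32.6, 30.7, 34 and 43.6 CPM in C57BL/6 mice and at 9.68, 15.5, 22 and 8.98 CPM in B6.SLE123 mice. The mice of the strains do not overlap, although B6.SLE123 mice differed among themselves by 2.46-fold. The mean fell from 35.2 ± 5.73 to 14.0 ± 6.08 CPM (SD, n = 4 each), a log2 fold change of -1.32 (SE 0.24, adjusted p = 0.000877 by edgeR), or 2.49-fold lower. Gbp3, Gbp7 and Iigp1 passed the threshold in each of 15 alternative settings, including each mouse left out in turn. By exact two-sided permutation test of each gene alone, these 3 had p = 0.0286, the smallest that 4 mice against 4 allow, while Gbp2 had p = 0.0571 and Irgm2 p = 0.0857, without adjustment for the 10 genes tested.

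The ratio between genes of the same cluster within a mouse is free of library scaling. After the data were seen, 5 such pairs were compared between the strains, each adjacent among the chosen genes. Gbp2b lies between Gbp3 and Gbp2. The log2 ratio of Gbp5 to Gbp7 was 0.76 ± 0.056 in C57BL/6 mice and 1.56 ± 0.32 in B6.SLE123 mice (SD, n = 4 each; difference 0.80, exact permutation p = 0.0286, 0.0714 adjusted over 5 pairs). Gbp3 to Gbp2, where the gene that fell is written first, went from -0.47 ± 0.11 to -1.11 ± 0.11 (difference -0.64, exact permutation p = 0.0286, 0.0714 adjusted). Each of these ratios thus moved toward less of the gene that fell against its partner. In both pairs the strains did not overlap, while neither adjusted p is below 0.05. The ratio of Gbp7 to Gbp3, the pair that fell, differed by 0.14 between the strains (exact permutation p = 0.343), that of Gbp9 to Gbp4 by -0.16 (p = 0.143) and that of Igtp to Irgm2 by 0.16 (p = 0.114).

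Per kilobase of exon, Gbp9 was the most abundant of the 10 in C57BL/6 mice, at 35.7 ± 4.03 CPM per kilobase, and its range was apart from that of the next gene. Gbp2 (26.4), Irgm2 (25.9), Igtp (20.9) and Irgm1 (16.9) followed, each overlapping its neighbour in the order. Gbp3 (14.6) was apart from both Irgm1 above it and Gbp4 (11) below it, and Gbp5 (9.15) overlapped Gbp4. The lowest genes, Gbp7 (6.38) and Iigp1 (6.05), overlapped each other. In B6.SLE123 mice the first 5 places were held by the same genes in the same order, from 31.7 CPM per kilobase for Gbp9 to 17.5 for Irgm1. Gbp3 came eighth there, at 8.23 CPM per kilobase, below Gbp4 (11) and Gbp5 (9.91), and its range overlapped that of Gbp5. Gbp7 (4.02) and Iigp1 (2.41) were again last and overlapped each other.

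**Figure D3:**
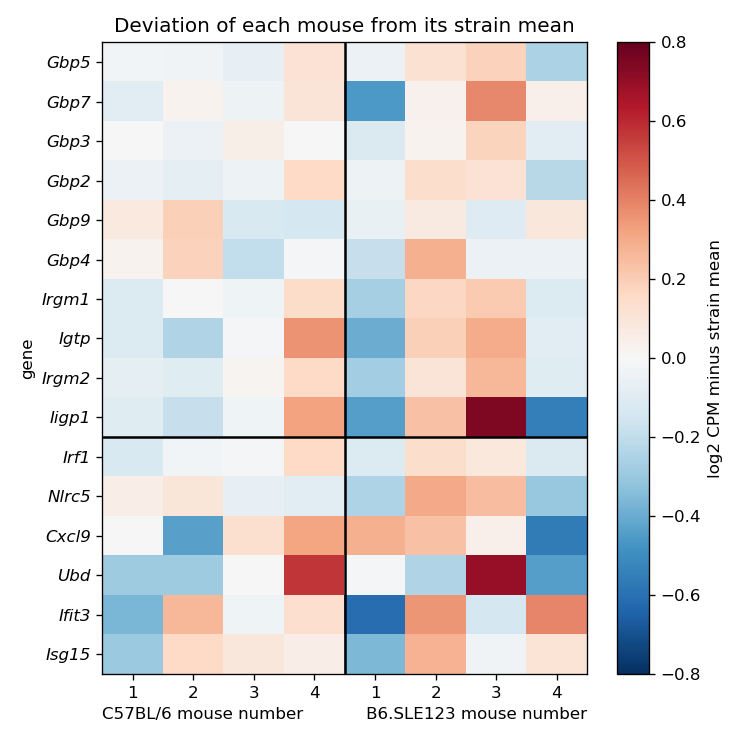
Deviation of each mouse from the mean of its own strain, in log2 CPM (red above, blue below), for the 10 GTPase genes above the horizontal line and 6 other interferon response genes under it; columns are mice 1 to 4 of each strain. B6.SLE123 mice 2 and 3 are red and mice 1 and 4 are blue in most GTPase rows, while Gbp9 and Gbp4 differ from the rest.

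Most of the GTPases varied together from mouse to mouse in B6.SLE123 mice, and less so in C57BL/6 mice. In B6.SLE123 mice the mean deviation of the 10 genes from the strain mean was -0.23, 0.14, 0.22 and -0.13 on the log2 scale in mice 1 to 4. The grouping of mice that follows was picked from these same values, so a high count among the 10 genes is a description and not a test. Mice 2 and 3 were both above mice 1 and 4 in 8 of 10 genes, against 18.7% of the 9081 genes with a mean of at least 10 CPM. The exceptions were Gbp9 and Gbp7, in which mouse 2 was level with mouse 4 (22.6 and 22.7 CPM), and in Gbp4 mice 3 and 4 were level. The IRG genes spread most, with mean deviations of -0.34, 0.17, 0.38 and -0.21. Among C57BL/6 mice, mouse 4, picked in the same way, was highest in 7 of 10 genes (30.4% of the same 9081 genes). Its mean deviation was 0.12, and the other mice were between -0.05 and -0.03. By family, the mean deviation of C57BL/6 mouse 4 was 0.25 for the IRG genes, with 4 of 4 above the strain mean. For the guanylate-binding protein genes it was 0.04, with 3 of 6 above. The spread of log2 CPM was larger in B6.SLE123 than in C57BL/6 mice for 9 of 10 GTPases, against 60.2% of the same 9081 genes. Gbp9 was the exception. Of 13 cell type marker lists, the summed level was lower in both mice 2 and 3 than in mice 1 and 4 for 6, higher in both for 0 and mixed for 7. The 6 were the shared dendritic cell (8768, 8729, 8541 and 9067 CPM in mice 1 to 4), migratory dendritic cell (1094, 1004, 1022 and 1111 CPM), monocyte (450, 300.4, 317 and 337 CPM), neutrophil, T cell and erythroid lists. The red pulp macrophage sum was 1840, 1389, 2393 and 2733 CPM in those mice. The part of these values in the GTPase pattern was not tested.

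Over the 8 mice, as deviations from the strain mean, Pearson's r between the IRG genes was 0.84 to 0.96 in 6 pairs, and between the 8 GTPases other than Gbp4 and Gbp9 it was 0.37 to 0.96 in 28 pairs. The highest values were between neighbours or family partners, Irgm2 with Igtp (0.96), which share exon bases, and Gbp2 with Gbp5 (0.96). Gbp9 was at -0.47 to -0.08 with those 8 genes and at 0.68 with its neighbour Gbp4. Within a library all genes share its depth and cell makeup, so these correlations are a description of 8 libraries. Of 9071 other genes with a mean of at least 10 CPM, those most like the mean of the 10 GTPases included Lrrc45 (r = 0.99), Ino80e (0.99), Med24 (0.98) and H2-Q4 (0.98). Those most like the guanylate-binding protein genes alone included Scly, Ap1g2, Med24 and Birc2 (r between 0.97 and 0.98), and those most like the IRG genes included Lrrc45, Rabggtb, Naa10 and Stk11 (0.95 to 0.97).

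Relatives of the 10 genes in the same chromosome clusters moved in both directions. Counts called in these and the following lists are to be read beside the 53.4% of all genes called, 26.6% lower and 26.7% higher. A difference from those shares was not tested. Of 5 other guanylate-binding protein genes, 4 were in the table, and all 4 passed the threshold by edgeR, with 3 lower and 1 higher. Gbp8, the chromosome 5 neighbour of Gbp9 and Gbp4, was the most abundant of them, at 242 to 257 CPM in C57BL/6 mice and 104 to 145 CPM in B6.SLE123 mice (log2 fold change -0.91, SE 0.090, adjusted p = 1.08e-05). Gbp8 thus fell beside Gbp9 and Gbp4, which did not pass the test, and with the counts of all 3 summed, an alternative added after the data were seen, the log2 fold change was -0.45 (adjusted p = 0.0002). Gbp6 (-1.35) and Gbp10 (-1.29) were lower at levels under 10 CPM and share exons with another annotated gene, Gm43302. Gbp2b, which lies between Gbp3 and Gbp2, was higher (0.97, adjusted p = 0.0211) at 1.10 to 1.56 CPM in C57BL/6 mice and 1.5 to 4.35 CPM in B6.SLE123 mice, and its call was lost without C57BL/6 mouse 1 (0.90, adjusted p = 0.0561) or mouse 4 (0.93, adjusted p = 0.0543).

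Among 13 other inducible GTPase genes 10 were in the table, of which 3 were higher, 3 were lower and 4 did not pass the threshold. On chromosome 18, Gm4951 (log2 fold change -2.03) and F830016B08Rik (-2.98) were lower with Iigp1. The 3 genes of that cluster in the table were thus all lower. The call of F830016B08Rik was not kept with a filter of at least 10 counts in every mouse. Under that filter 5 of the other inducible GTPase genes passed in place of 6. Gm4951 went from 16.2 ± 1.24 to 3.96 ± 1.08 CPM (SD, n = 4 each; adjusted p = 1.78e-06 by edgeR). On chromosome 11, Tgtp1, an effector IRG gene, was higher, at 6.65 ± 1.19 CPM in C57BL/6 and 18.5 ± 7.09 CPM in B6.SLE123 mice (log2 fold change 1.48, adjusted p = 0.00048). Its near-identical copy Tgtp2 was at 0.22 (adjusted p = 0.365), and reads of this pair are uncertain. Gm5431 was lower (-0.84) and 9930111J21Rik1 (0.45) and 9930111J21Rik2 (0.18) were higher, so genes of the chromosome 11 cluster went both ways. Gvin1 (0.06) and Gm4070 (-0.31), very large inducible GTPase genes on chromosome 7, did not pass. The call of 9930111J21Rik2 was lost without C57BL/6 mouse 3 or 4 or B6.SLE123 mouse 2 or 4 (adjusted p between 0.0615 and 0.0702), and Ifi47, at -0.24 and not called, passed without B6.SLE123 mouse 3 (-0.36, adjusted p = 0.0318).

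**Figure D4:**
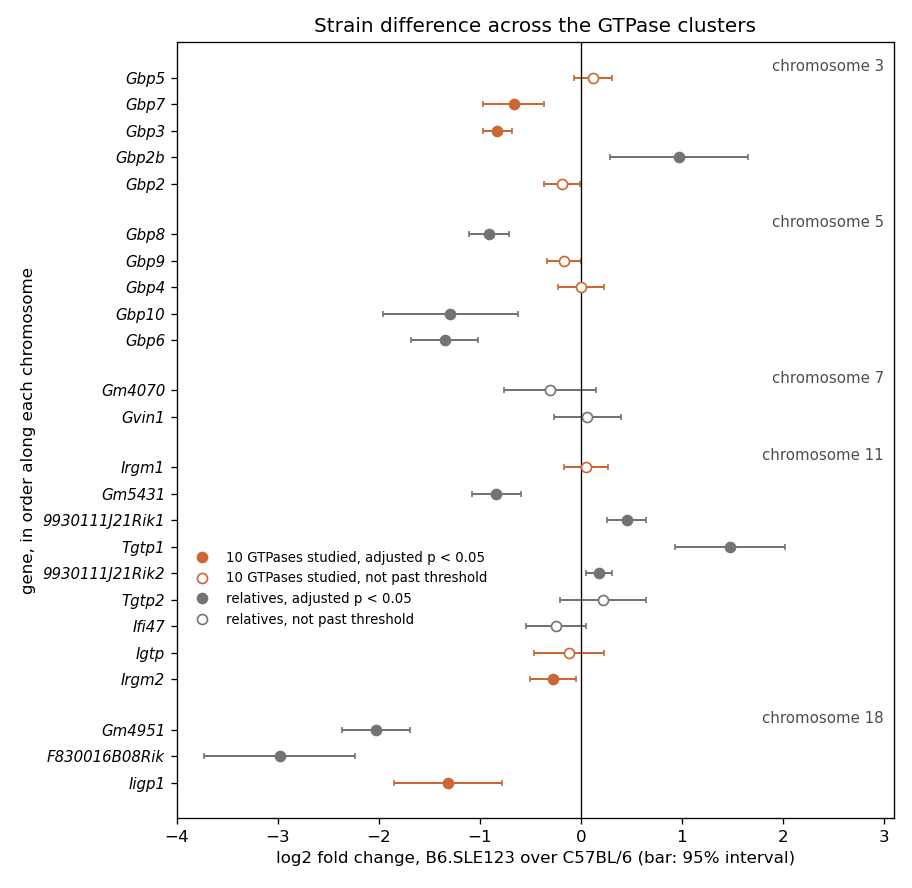
Log2 fold change, B6.SLE123 over C57BL/6, with its 95% interval, for the 10 GTPase genes (orange) and 14 relatives (grey) in their order along each chromosome; filled points passed an adjusted p below 0.05 by edgeR. Genes that passed lie beside genes that did not on chromosomes 3, 5 and 11, and the 3 genes of chromosome 18 are all lower.

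Most signalling genes of the interferon gamma pathway did not pass the test. Of 13, 4 were higher and 1 was lower, with a median log2 fold change of 0.00. Jak2, the kinase of the receptor's second chain, was higher (0.57, adjusted p = 6.4e-06 by edgeR), as were the factor Irf8 (0.48) and the feedback inhibitors Socs1 (0.60) and Socs3 (0.60). Irf1 (0.00), the receptor chains Ifngr1 (-0.09) and Ifngr2 (-0.09), Jak1 (-0.02), Stat2 (-0.03), Irf2 (-0.08), Irf9 (0.08) and Ptpn2 (0.09) did not pass the threshold. The cytokine gene Ifng was lower (-0.98, adjusted p = 0.0404) but had 4 to 20 counts per mouse, and its call was lost in DESeq2 (adjusted p = 0.0862) and without C57BL/6 mouse 1 or 4 or B6.SLE123 mouse 2, 3 or 4 (0.0663 to 0.124). Ifngr2 passed without B6.SLE123 mouse 4 (-0.13, adjusted p = 0.0256) and Irf9 without B6.SLE123 mouse 1 (0.14, adjusted p = 0.0286), and Ptpn2 passed with upper quartile factors (0.11, adjusted p = 0.0450).

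Other genes induced by interferon gamma went both ways: of 26 listed, 24 were in the table, and 11 were higher and 7 lower (median log2 fold change 0.14). Higher genes included the chemokine gene Cxcl9 (0.78), Ciita, the master factor of MHC class II genes (0.50), and the immunoproteasome subunit Psmb9 (0.46). Lower genes included the ubiquitin-like modifier Ubd (-2.65), the Fc receptor Fcgr1 (-2.32) and the interleukin 18 inhibitor Il18bp (-1.30), while Tapbp (0.13) and Cd274 (-0.11) did not pass. Cd274 passed without B6.SLE123 mouse 4 (-0.17, adjusted p = 0.0486) and Tapbp with upper quartile factors (0.15, adjusted p = 0.0386). Of 21 genes induced by type I interferon, 19 were in the table, and 9 were lower and 2 higher (median -0.28). The antiviral genes Ifit3 (-0.89), Rtp4 (-0.75) and Cmpk2 (-0.65) were lower, Oasl1 (0.61) and the nucleic acid sensor Zbp1 (0.47) were higher, and Oasl2 (0.09) and Usp18 (0.17) did not pass. The call of Zbp1 was lost without C57BL/6 mouse 1 or 3 or B6.SLE123 mouse 2 or 3 (adjusted p between 0.0559 and 0.0721).

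Partners of the GTPases were counted by role, again beside 53.4% of all genes called, 26.6% lower and 26.7% higher. The ATG8 conjugation machinery is needed to bring IRG proteins and guanylate-binding proteins to vacuoles, and of its 11 genes 3 were higher and 4 lower (median log2 fold change -0.05). The ATG8 homologues Map1lc3a (-1.21) and Gabarapl1 (-0.79) and the enzyme Atg7 (-0.29) were lower, Gabarapl2 (0.29), Atg3 (0.19) and Atg12 (0.12) were higher, and Sqstm1 (-0.05) and Gabarap (0.04) did not pass. The calls of Atg3 and Atg12 depended on single mice, that of Atg3 being lost without mouse 1 or 2 of either strain and that of Atg12 without C57BL/6 mouse 1 or 4 or B6.SLE123 mouse 2 or 4 (adjusted p between 0.0541 and 0.0807). Inflammasome and lysis genes act downstream of guanylate-binding proteins, and 6 of 9 were lower with none higher (median -0.37), among them Il18 (-1.90), Il1b (-1.16) and Casp1 (-0.47). Aim2 (-0.15) and Gsdmd (-0.01) did not pass the threshold, although Aim2 did without B6.SLE123 mouse 2 (-0.22, adjusted p = 0.0127). Of 5 prenylation enzymes, which act on CaaX proteins, 1 (Rce1, -0.22) was lower, and Pggt1b (0.08) and Icmt (0.01) did not pass.

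**Figure D5:**
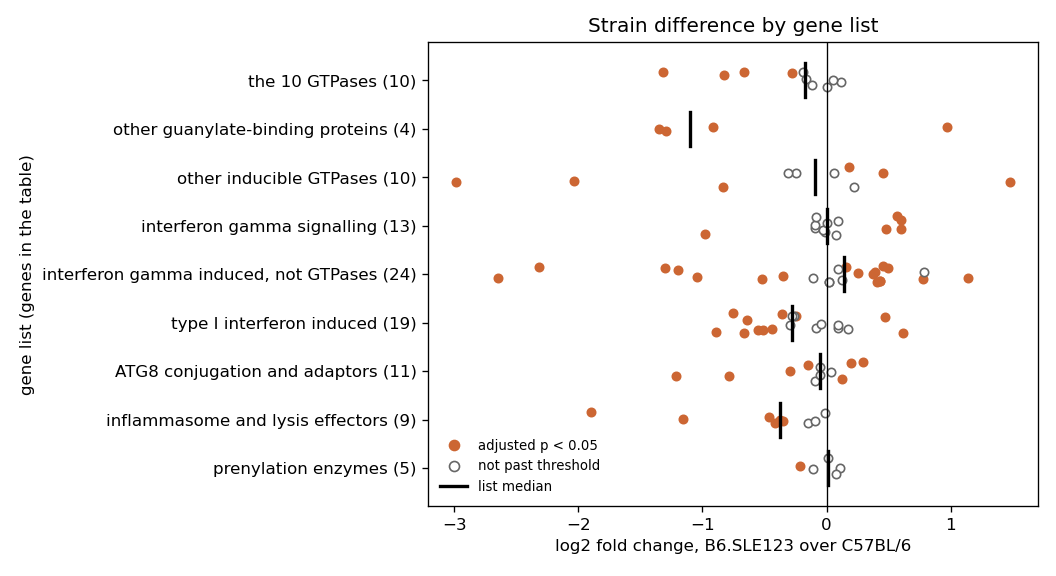
Log2 fold change, B6.SLE123 over C57BL/6, of every gene in 9 lists, with the number of genes in the table in brackets; filled orange points passed an adjusted p below 0.05 by edgeR and the black bar is the list's median. The 10 GTPases have a median of -0.18, and the inflammasome list holds no gene that was higher.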

How the data were processed

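The mRNA of CD11c-positive spleen cells was sequenced in 8 mice, 4 of each strain. Reads were trimmed (cutadapt), aligned to mm10 (STAR) and assigned to genes (featureCounts) by the authors. The deposited table holds raw counts per gene and mouse for 13786 protein-coding genes, and the larger strain median was at least 5 counts for each. Whether counting used the strand is not given in the sources used here. The 7 columns of the authors' own comparison (mean signal, log2 fold change, standard error, test score, p-value, adjusted p-value and fold) were not used. Symbols turned into dates were restored for 21 genes.

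In edgeR 4.0.16 (R 4.3.3) counts were normalised by TMM and the strains compared by the quasi-likelihood F test without a filter or covariates, with Benjamini-Hochberg adjustment over 13786 genes. Log2 CPM used a prior count of 2. The procedure was tested on simulated data. Exon lengths and overlaps came from GENCODE M21, in which 13663 genes had the same coordinates as in the table. Between mice of a strain, chi-square divided by its degrees of freedom was 4.96 to 18.9, so each was kept as a replicate. The p-values set the strain difference against the spread between these mice.

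Alternatives were DESeq2 1.42.0, limma-voom (limma 3.58.1), a block for the replicate number, a filter of at least 10 counts per mouse, relative log expression or upper quartile factors, library totals alone, and each mouse left out. The genes and lists were chosen with earlier results of these data known. All 10 GTPases and the signalling genes were named; from each other list, up to 3 called genes with the largest change in each direction at a mean of at least 10 CPM, and up to 2 uncalled genes with the highest level. Other relatives were named by position. Gm12250, Gm1966, Gm17757 and Gbp11 were not analysed here, and some genes that the rules would name are not reported here.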

Additional observations from a re-analysis of the deposited data

Results flagged for a closer look

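Among 124 groups of 4 mice, 1 for each named gene and strain, Dixon's test at the 95% level set 1 mouse apart from the others in 4, against 6.2 expected by chance. For Gbp2, C57BL/6 mouse 4 was at 6.21 log2 CPM against a strain median of 6.01. The other groups belonged to genes outside the 10 GTPases: Il18bp in B6.SLE123 mouse 3 was at 4.20 log2 CPM (median 3.76), Ciita in B6.SLE123 mouse 2 at 10.4 log2 CPM (median 10.3) and Il1b in C57BL/6 mouse 4 at 7.54 log2 CPM (median 7.14).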

How the results depend on the processing

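Gbp3, Gbp7 and Iigp1 stayed lower and past the threshold in each of 15 alternative settings, with log2 fold changes of -0.89 to -0.79, -0.81 to -0.54 and -1.62 to -1.17. Irgm2 passed in 9 of 16. Between 3 and 5 of the 10 GTPases were called when a mouse was left out, and 6496 to 7013 of all genes. Of 166 counts over lists and settings 165 were within 1.5 times the main count; with upper quartile factors 2 prenylation enzymes passed in place of 1. Of 934 gene values, 861 kept their direction and side of the threshold, 30 lost and 11 gained the call, and 32 changed sign. Gbp4 was at -0.0056 with library totals alone, -0.011 with at least 10 counts in every sample, and -0.45 with Gbp4, Gbp8 and Gbp9 summed, where Gbp8 gave much of the count. With upper quartile factors Jak1 was at 0.0012 and Gsdmd at 0.0084, with library totals Irf1 was at -0.0024, and with at least 10 counts Irf1 was at -0.0096 and Icmt at -0.00065. Leaving out each mouse moved Gbp4 between -0.11 and 0.066, Irgm1 between -0.020 and 0.13 and Igtp between -0.22 and 0.0076. The same fits moved Jak1 between -0.050 and 0.00054, Stat2 between -0.084 and 0.061, Irf1 between -0.054 and 0.049, Oasl2 between -0.12 and 0.26, Sqstm1 between -0.14 and 0.020, Gabarap between -0.0027 and 0.082, Gsdmd between -0.057 and 0.031 and Icmt between -0.012 and 0.023. None of these values was called apart from the summed one, and the cause of the sign changes was not tested.

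Mice of both strains carry the numbers 1 to 4. The correlation of same-numbered mice was 0.051, 0.262, 0.074 and 0.108, not above 0.1 in each pair. C57BL/6 mice 2 and 4 correlated best with the B6.SLE123 mouse of the same number. C57BL/6 mouse 1 correlated best with B6.SLE123 mouse 3 (0.0999), and C57BL/6 mouse 3 with B6.SLE123 mouse 1 (0.126). With this mixed result the numbers were not taken as pairs in the main test. With the replicate number as a block, 7183 genes were called, 4 of the 10 GTPases among them, and Gbp4 was at -0.0036; Ifng lost its call (adjusted p = 0.0648).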
